A study of Mus musculus with 9 samples.

Results

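The nuclear genes for the subunits of oxidative phosphorylation were followed across 9 mouse tumour libraries. They were chosen by symbol: every gene whose name begins with Nduf plus the letter a, b, c, s or v and a digit, with Uqcr, with Cox4 to Cox8 or with Atp5, and the 4 Sdh genes a to d. The rule found 83 of 21944 genes, of which 37 belong to complex I, 4 to complex II, 8 to complex III, 17 to complex IV and 17 to complex V. RNA was sequenced from 3 groups of 3 libraries: liver metastases of N134-RHAMMB cells (metastases 1, 2 and 3), subcutaneous tumours of N134-RHAMMB cells (N134-RHAMMB tumours 1, 2 and 4) and subcutaneous tumours of N134 cells (N134 tumours 1, 2 and 3). N134 is a mouse pancreatic neuroendocrine tumour line, and N134-RHAMMB cells carry the name of RHAMMB, a form of RHAMM, which binds hyaluronan. All hosts were NOD.Cg-PrkdcscidIl2rgtm1Wjl/SzJ (NSG) mice, which lack mature lymphocytes and carry their own stroma, liver and muscle. Each genotype is 1 cell line, and the sources used here do not give the hosts' age or the species and promoter of the construct. The study's title concerns RHAMMB and metastasis, and setting N134-RHAMMB against N134 tumours bears on the line, while setting metastases against N134-RHAMMB tumours bears on the site. Subcutaneous tumours came from injection under the skin and metastases from tail vein injection, so site and route cannot be told apart, and the metastases differ from N134 tumours in both line and site.

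Oxidative phosphorylation takes place in the inner mitochondrial membrane. Complex I takes electrons from NADH and complex II from succinate, both pass them through ubiquinone to complex III, cytochrome c carries them to complex IV, and complex IV hands them to oxygen. Complexes I, III and IV pump protons, and complex V, the ATP synthase, lets them flow back to make ATP. In pancreatic beta cells ATP made in this way closes potassium channels and starts insulin release. A few subunits of complex IV have tissue isoforms that replace the common form in muscle, lung or testis.

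Values are FPKM, the number of fragments scaled to transcript length and to library size, so levels can be compared between genes. Depth was estimated at 14.8 (N134-RHAMMB tumour 4) to 18.2 (metastasis 2) M fragments per library, and 12057 to 12542 genes reached 1 FPKM. Nothing in the labels ties the replicates to separate animals, so the p-values reflect the spread among these samples alone, which may be technical. All 10 beta cell markers stood above 1 FPKM in every library, at summed levels of 42495, 47509 and 47851 FPKM in metastases, 32631, 36990 and 31175 FPKM in N134-RHAMMB tumours, with 41271, 37538 and 41431 FPKM in N134 tumours. Host transcripts differed: the 16 hepatocyte markers summed to 4768 to 4894 FPKM in metastases, against 348 to 457 FPKM in N134-RHAMMB tumours, with 376 to 464 FPKM in N134 tumours, and 15 or 16 of them passed 1 FPKM in metastases, against 5 to 7 in N134-RHAMMB and 5 to 8 in N134 tumours. In subcutaneous tumours most of this sum was Ttr, at 282 to 427 FPKM, against 480 to 574 FPKM in metastases. Alb stood at 0.481 to 1.6 FPKM in subcutaneous tumours and at 1410 to 1609 FPKM in metastases. The cells that gave the Ttr transcript were not tested. The 13 skeletal muscle markers summed to 202 FPKM in N134-RHAMMB tumour 2, to 247 FPKM in N134-RHAMMB tumour 4 and to 8.29 to 23.1 FPKM in the other libraries. Fibroblast, macrophage and erythroid marker sums were lower in metastases than in N134 tumours. Fibroblast markers summed to 191 to 405 FPKM in metastases, 282 to 490 FPKM in N134-RHAMMB tumours, with 605 to 860 FPKM in N134 tumours. Of these 8 markers, 0 fell between metastases and N134-RHAMMB tumours (1.52% of all genes) and 1, Dcn, rose (5.04% of all genes). Between N134-RHAMMB and N134 tumours 2 fell (0.117% of all genes). Between metastases and N134 tumours 4 fell (4.23% of all genes), while Dcn and Fbln1 averaged more in metastases. Macrophage markers summed to 215 to 365 FPKM in metastases, 338 to 453 FPKM in N134-RHAMMB tumours, with 466 to 795 FPKM in N134 tumours. Between metastases and N134 tumours 8 of 9 fell, where 4.23% of all genes did so. Erythroid markers summed to 282 to 383 FPKM in metastases, 396 to 861 FPKM in N134-RHAMMB tumours, with 973 to 1947 FPKM in N134 tumours. Endothelial markers summed to 41.2 to 44 FPKM in metastases, 43.1 to 49.8 FPKM in N134-RHAMMB tumours, with 46.5 to 59.2 FPKM in N134 tumours. In each comparison 0 of these 6 markers were called, where 0.194% to 9.93% of all genes were, so the count says little. The part of these cells in the comparisons of subunit genes was not tested. Apart from the muscle isoforms of complex IV, liver and muscle use the same subunit genes. In bulk samples fewer cells of a type and less RNA per cell cannot be told apart.

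The subunit genes were among the most abundant transcripts of these tumours. Their median level was 136 FPKM over the 9 libraries, against 11.8 FPKM for the 12854 genes tested, and 43 of the 500 most abundant genes were members. Together they took 2.92%, 3.24% and 2.99% of all FPKM in metastases, 3.39%, 3.67% and 3.12% in N134-RHAMMB tumours and 2.93%, 3.07% and 3.13% in N134 tumours. Of the 83 genes, 46 had a mean of at least 100 FPKM, 73 a mean of at least 10 FPKM and 10 a lower one. The low ones were Cox4i2, Cox6a2, Cox6b2, Cox7a1, Cox7b2, Cox8b and Cox8c of complex IV, Ndufa4l2 counted with complex I, and Atp5l and Atp5s counted with complex V. The filter for testing, at least 1 FPKM in at least 3 libraries, was passed by 81 members and not by Cox8b and Cox8c.

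**Figure D1:**
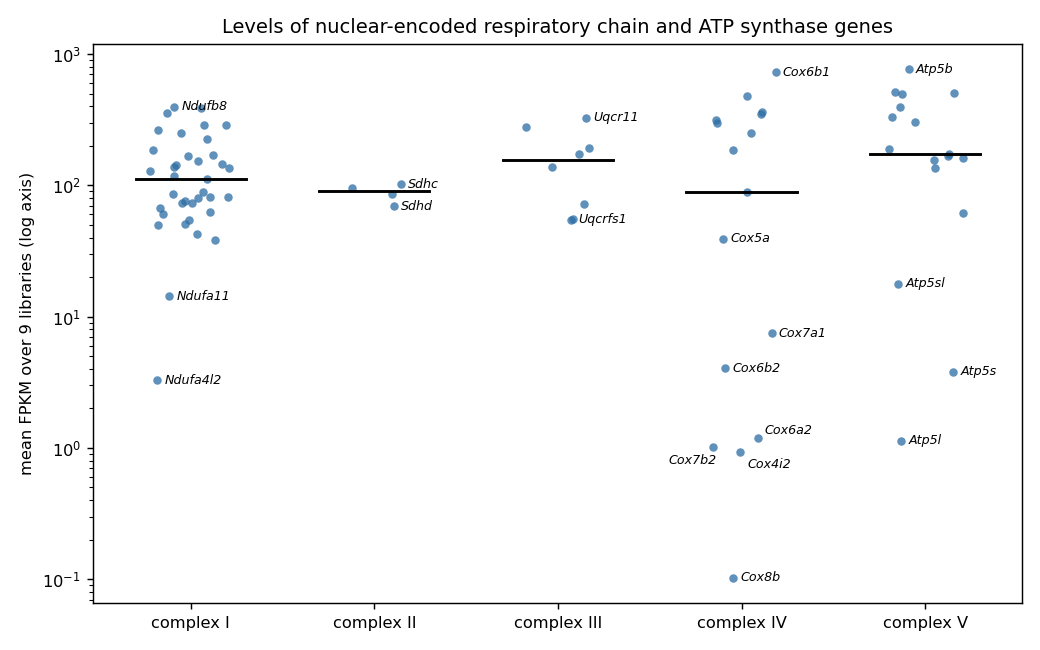
Mean FPKM over the 9 libraries (log axis) of each member, by complex; a point is 1 gene, a black bar the median of the complex, and Cox8c, listed at 0 in every library, cannot be drawn. Most members lie above 10 FPKM, and the low genes are mainly tissue isoforms of complex IV.

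Complex I had a median level of 111 FPKM and a highest one of 396 FPKM, for Ndufb8, an accessory subunit of the membrane arm. Ndufb8 stood at 331, 336 and 367 FPKM in metastases, 453, 453 and 391 FPKM in N134-RHAMMB tumours, with 433, 398 and 405 FPKM in N134 tumours. Every metastasis was below every subcutaneous tumour for this gene, which overlaps the annotated gene Gm20538 on the same strand. Among the nuclear core subunits, most of which hold the flavin or iron-sulfur clusters, Ndufv1, which binds NADH, averaged 152 FPKM. Ndufv2, Ndufs1, Ndufs3, Ndufs7 and Ndufs8 averaged from 51.1 to 75.4 FPKM. Ndufa4 was first assigned to complex I and is now known as a subunit of complex IV. It had 300, 345 and 424 FPKM in metastases, 405, 421 and 325 FPKM in N134-RHAMMB tumours, with 341, 302 and 319 FPKM in N134 tumours, and its hypoxia-induced paralog Ndufa4l2 stayed between 1.93 and 5.41 FPKM in all libraries. Among members at 10 FPKM or more, Ndufa11 was the lowest of complex I at 14.3 FPKM, so that the subunits of this one complex spanned a 27.8-fold range of transcript level.

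Complex II, the only one with no mitochondrially encoded subunit and also an enzyme of the tricarboxylic acid cycle, was the most even. Its genes averaged 102 FPKM for Sdhc, 95.8 FPKM for Sdhb, 85.4 FPKM for Sdha and 69.4 FPKM for Sdhd, a 1.47-fold range. Sdhc, a membrane anchor, had 103, 118 and 92.7 FPKM in metastases, 112, 104 and 94.3 FPKM in N134-RHAMMB tumours, with 105, 98.3 and 88.3 FPKM in N134 tumours. The groups overlapped for all 4 genes. The coefficient of variation between libraries had a median of 14.3% over these 4 genes, against 10.9% to 12.2% in the other complexes, and Sdhd, the other anchor, reached 23.8%.

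In complex III the levels ran from 327 FPKM for Uqcr11 and 277 FPKM for Uqcrh, a small hinge subunit, down to 55.6 FPKM for the core protein gene Uqcrc1 and 54.5 FPKM for Uqcrfs1, the Rieske iron-sulfur protein. Uqcr11, the smallest subunit, had 289, 356 and 336 FPKM in metastases, 297, 343 and 291 FPKM in N134-RHAMMB tumours, with 317, 350 and 362 FPKM in N134 tumours. These groups overlapped in every comparison, as did those of the other genes of complex III except Uqcrc2 and Uqcrfs1.

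Complex IV held 7 of the 10 members under 10 FPKM, all of them tissue isoforms. Cox6b1, the common form of a subunit that bridges the dimer, was its most abundant gene with 676, 736 and 633 FPKM in metastases, 779, 877 and 700 FPKM in N134-RHAMMB tumours, with 671, 689 and 787 FPKM in N134 tumours. Its testis isoform Cox6b2 lay between 1.62 and 7.03 FPKM, or 0.219% to 1.01% of the pair. Cox6c, which has no isoform in the set, averaged 480 FPKM.

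For the other pairs too the common form made up nearly all of the transcript. Cox6a1 ran from 282 to 350 FPKM, and its heart and skeletal muscle form Cox6a2 had 0.843, 0.529 and 2.26 FPKM in metastases, 0.303, 2.69 and 1.59 FPKM in N134-RHAMMB tumours, with 0.98, 0.29 and 1.2 FPKM in N134 tumours, at most 0.848% of the pair. Cox6a2 was high in both tumours with muscle transcripts, and also in metastasis 3, where the muscle markers summed to 9.61 FPKM. Cox7a2 ran from 143 to 280 FPKM and Cox7a2l, which helps to join complexes III and IV into supercomplexes, from 83.7 to 102 FPKM. Cox7a1, the muscle and brown fat form, was the tissue isoform with the largest share, 1.7% to 6.24% of Cox7a1 plus Cox7a2. It had 7.21, 4.82 and 8.8 FPKM in metastases, 13.4, 8.64 and 9.32 FPKM in N134-RHAMMB tumours, with 3.21, 5.7 and 5.81 FPKM in N134 tumours. Its highest library, N134-RHAMMB tumour 1, had a muscle marker sum of 18.1 FPKM, within the range of the N134 tumours (13 to 23.1 FPKM), and the highest adipocyte marker sum of all libraries, 95.9 FPKM. Of that sum Fabp4 made up 71.9 FPKM, with the brown fat markers Ucp1 at 0 and Cidea at 0.0638 FPKM. N134 tumour 1 had the next highest adipocyte sum, 73.2 FPKM, and the lowest Cox7a1 level, 3.21 FPKM. The part of either tissue in the Cox7a1 level was not tested. Cox7b ran from 154 to 398 FPKM, and Cox7b2, known mainly from testis in human, reached at most 2.87 FPKM. Cox8a ran from 221 to 277 FPKM, the muscle form Cox8b was listed at 0.927 FPKM in N134-RHAMMB tumour 2 and at 0 in the other libraries, and the testis form Cox8c was listed at 0 everywhere. Cox4i2, the lung form of the Cox4 subunit, stood between 0.391 and 1.59 FPKM, and its common partner Cox4i1 was not analysed here.

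To show what lies before an abundant and a nearly silent form of the same subunit, 3 promoters are printed from 250 bases before to 50 bases after the start site, from RefSeq in the GRCm38.p6 build, all on the minus strand. Capitals mark matches on either strand to 5 motifs: CCGGAAG of ETS factors such as GABP, the 10-base palindrome of NRF1 (the first run of capitals in Cox6a1), AAGATGGC of YY1, TATAAA of the TATA box and the E-box CAGCTG read by muscle factors. The regions are chr5:115348909-115349208 for Cox6a1, chr19:7217567-7217866 for Cox8a and chr7:140900397-140900696 for Cox8b.
Cox6a1: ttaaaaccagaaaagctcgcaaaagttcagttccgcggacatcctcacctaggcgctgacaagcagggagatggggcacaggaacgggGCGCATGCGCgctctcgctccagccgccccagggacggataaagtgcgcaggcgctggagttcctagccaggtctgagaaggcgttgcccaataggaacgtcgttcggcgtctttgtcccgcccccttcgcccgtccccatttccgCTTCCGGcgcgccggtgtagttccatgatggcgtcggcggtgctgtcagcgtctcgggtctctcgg
Cox8a: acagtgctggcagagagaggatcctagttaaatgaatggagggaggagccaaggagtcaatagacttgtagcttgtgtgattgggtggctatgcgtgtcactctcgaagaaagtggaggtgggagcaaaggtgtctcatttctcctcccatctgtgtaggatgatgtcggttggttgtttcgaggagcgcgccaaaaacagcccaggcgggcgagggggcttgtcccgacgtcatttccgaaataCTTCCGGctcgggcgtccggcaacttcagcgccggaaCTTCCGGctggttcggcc
Cox8b: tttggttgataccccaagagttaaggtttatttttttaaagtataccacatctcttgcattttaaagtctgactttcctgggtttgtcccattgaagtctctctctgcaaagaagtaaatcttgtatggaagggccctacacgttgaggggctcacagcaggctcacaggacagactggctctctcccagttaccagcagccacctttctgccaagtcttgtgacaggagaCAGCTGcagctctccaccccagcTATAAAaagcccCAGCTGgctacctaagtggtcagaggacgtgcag

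Counted from the start site, Cox6a1 held the NRF1 motif from base -162 and the ETS motif from base -16, and Cox8a held the ETS motif from bases -5 and 32. Cox8b held neither and had the E-box from bases -19 and 16 and TATAAA from base 4. All 83 members were matched to RefSeq and 69 had a promoter in the table. The ETS motif stood in 16 of the 69 (23.2%), against 9.93% of 27025 promoters, the NRF1 motif in 5 (7.25%, against 1.07%) and the YY1 motif in 11 (15.9%, against 3.19%). At least 1 of these 3 motifs was found in 29 of 69 members, 42%, against 13.4% of all promoters. TATAAA stood in 7 members (10.1%, against 15.7%) and CAGCTG in 6 (8.7%, against 18.3%). These counts describe letters in a window and carry no test.

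Complex V was led by Atp5b, the catalytic beta subunit, with 735, 776 and 768 FPKM in metastases, 888, 825 and 783 FPKM in N134-RHAMMB tumours, with 729, 684 and 686 FPKM in N134 tumours. All 3 N134-RHAMMB tumours were above all other libraries for this gene, the most abundant of the 83. The other head subunits followed at 392 FPKM for Atp5a1 (alpha), 174 FPKM for Atp5c1 (gamma), 61.7 FPKM for Atp5d (delta) and 502 FPKM for Atp5e (epsilon). Atp5l, which encodes subunit g of the membrane part, was listed at 0.803 to 1.61 FPKM, while Atp5k, for the neighbouring subunit e, averaged 510 FPKM. Atp5l lies opposite an annotated antisense gene, and reads shared with processed pseudogenes could move its value. Atp5s and Atp5sl, at 3.8 and 17.8 FPKM, carry the name of the complex but are not among its core subunits.

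Subunit c, which forms the rotating ring, is encoded 3 times, and Atp5g1, Atp5g2 and Atp5g3 encode the same mature protein behind different import signals. The last 120 coding bases, stop codon included, are printed because they show how alike the transcripts are that share out the reads. They come from GENCODE release M21 (GRCm38, minus strand of chromosomes 11, 15 and 2), and capitals mark the 31 positions at which the 3 are not identical.
Atp5g1: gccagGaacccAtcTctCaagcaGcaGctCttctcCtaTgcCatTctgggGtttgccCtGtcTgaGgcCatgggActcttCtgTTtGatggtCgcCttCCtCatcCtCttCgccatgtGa
Atp5g2: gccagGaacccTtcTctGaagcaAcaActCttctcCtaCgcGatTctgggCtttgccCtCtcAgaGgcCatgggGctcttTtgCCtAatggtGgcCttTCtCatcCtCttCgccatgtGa
Atp5g3: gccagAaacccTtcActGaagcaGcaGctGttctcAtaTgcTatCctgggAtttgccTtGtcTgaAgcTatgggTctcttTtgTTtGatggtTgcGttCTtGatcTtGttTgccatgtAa

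Atp5g1 and Atp5g2 differed at 16 of these bases, Atp5g1 and Atp5g3 at 22, and Atp5g2 and Atp5g3 at 28. Over the whole coding sequences the longest identical stretches were 21, 11 and 8 bases. The 3 genes shared the transcript almost evenly: Atp5g1 made up 28.8% to 32.2% of their sum over the 9 libraries, Atp5g2 34.1% to 40.4% and Atp5g3 29.7% to 36.9%. Atp5g3 reached its highest share in metastasis 2, with 151, 218 and 152 FPKM in metastases, 179, 179 and 164 FPKM in N134-RHAMMB tumours, with 154, 156 and 148 FPKM in N134 tumours. Atp5g1 had 153, 171 and 155 FPKM in metastases, 164, 163 and 149 FPKM in N134-RHAMMB tumours, with 145, 147 and 148 FPKM in N134 tumours, with the N134 tumours below all others. Atp5g2 averaged 188 FPKM and its groups overlapped in every comparison.

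**Figure D2:**
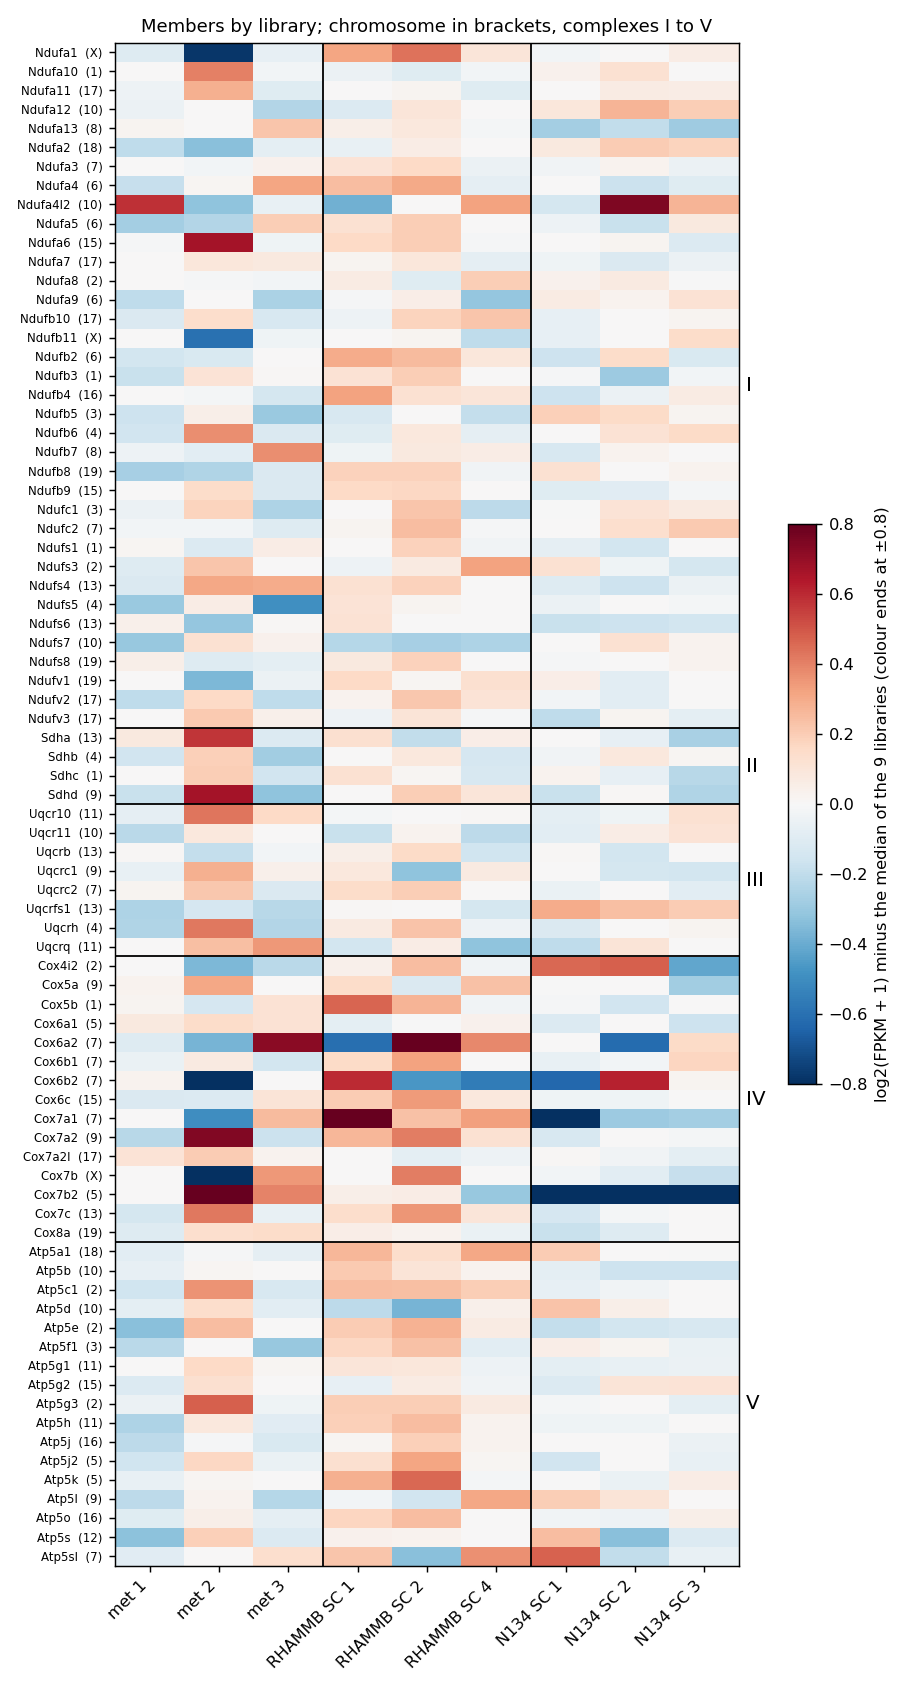
Deviation of log2(FPKM + 1) from the median of the 9 libraries for 80 of the 81 members that passed the filter, with complexes I to V from top to bottom and metastases, N134-RHAMMB tumours and N134 tumours from left to right. Metastasis 2 is low for Ndufa1, Ndufb11 and Cox7b and high for Cox7a2 and Sdhd, and N134-RHAMMB tumour 2 is the highest library for 23 members.

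Metastasis 2 was the highest of the 9 libraries for 26 of the 81 members, against 16.1% of all genes tested, and the lowest for 9 members, against 29.7% of all genes. N134-RHAMMB tumour 2 was the highest for 23 members, against 4.55% of all genes. Metastasis 1 was the lowest for 22 members, against 10.3% of all genes, and the highest for 0, against 9.8%. Metastasis 3 was the lowest for 14 members, against 12.1% of all genes. The same group thus held both the library that was most often highest and the one that was most often lowest for these genes.

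Between N134-RHAMMB tumours and N134 tumours no member passed the test. At an adjusted p below 0.05, limma called 0 of the 81 members, where 0.194% of all genes were called (0.0778% higher and 0.117% lower). At an unadjusted p below 0.05 it gave 7 members higher, where 5.8% of all genes did so, and 2 lower, where 7.03% did so. The difference in log2(FPKM + 1) was above 0 for 58 of 81 members, 71.6%, against 52.3% of all genes, with a median of 0.10 against 0.01. In 23 members all 3 N134-RHAMMB tumours lay above all 3 N134 tumours, where 14% of all genes did so, and in 5 members below, where 11.3% did so.

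By complex, the median log2 difference was 0.09 in complex I, 0.09 in II, 0.02 in III, 0.23 in IV and 0.14 in V. The groups did not overlap upward in 8 of 37 tested members of complex I, 0 of 4 of II, 1 of 8 of III, 6 of 15 of IV and 8 of 17 of V, where 14% of all genes did so. In complex V these were Atp5b, Atp5c1, Atp5e, Atp5g1, Atp5g3, Atp5h, Atp5j and Atp5j2, with log2 differences from 0.10 to 0.34. Atp5e had 573, 604 and 520 FPKM in N134-RHAMMB tumours, against 436, 449 and 455 FPKM in N134 tumours, a difference of 0.34 (adjusted p = 0.351). The downward members were Ndufa2, Ndufa10, Ndufb5 and Ndufs7 of complex I and Uqcrfs1 of complex III (5 of 81, against 11.3% of all genes). Muscle transcripts were high in N134-RHAMMB tumours 2 and 4, and without these 2 libraries the median over members was 0.14, against 0.03 over all genes. Only N134-RHAMMB tumour 1 then remains in its group, with the spread taken from the other groups, and 1 gene of all was called, so a count of members says little there.

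The largest differences were those of Cox7a1 and Cox7b2, both low. Cox7a1 averaged 10.5 ± 2.58 FPKM in N134-RHAMMB tumours, with 4.91 ± 1.47 FPKM in N134 tumours (SD, n = 3 each), a log2 difference of 0.97 (SE 0.26, adjusted p = 0.174). With N134-RHAMMB tumours 2 and 4 left out it was 1.32, a value that rests on N134-RHAMMB tumour 1 alone, the library with the highest Cox7a1 level. Cox7b2 had 1.2, 1.22 and 0.728 FPKM in N134-RHAMMB tumours, against 0.162, 0 and 0 FPKM in N134 tumours, a difference of 0.95 (SE 0.22, adjusted p = 0.141). Without metastasis 2 its adjusted p was 0.0399. Cox7b2 met the filter only through metastases and N134-RHAMMB tumours, where it is high. A low level in N134 tumours was thus bound to appear as a difference, and neither its adjusted p nor a call of it supports anything further. A fit that weights the libraries by their spread called 25 members (30.9%), 19 higher and 6 lower, and 2629 of all genes (20.5%), against 25 genes without the weights. The count of 0 thus depends on that choice, which raised the calls over all genes too. Leaving out metastasis 2, which is in neither group but enters the shared estimate of the spread, gave 1 call, Cox7b2, among 191 genes.

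Metastases and N134-RHAMMB tumours also gave 0 called members of 81, where 6.56% of all genes were called (5.04% higher and 1.52% lower). At an unadjusted p below 0.05 there was 1 member higher (8.13% of all genes), Uqcrq, and 6 lower (8.53% of all genes). The log2 difference was above 0 for 25 members, 30.9%, against 39.5% of all genes, and its median was -0.10 against -0.06. All 3 metastases lay below all 3 N134-RHAMMB tumours in 10 members, where 11% of all genes did so, and above them in 3 members, where 8.8% did so. The 3 were Cox6a1, Cox7a2l and Ndufa10.

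The median log2 difference was -0.09 in complex I, -0.01 in II, 0.00 in III, -0.15 in IV and -0.18 in V. Ndufa1, a small membrane subunit of complex I encoded on the X chromosome, had the largest one: 263, 164 and 270 FPKM in metastases, against 351, 382 and 302 FPKM in N134-RHAMMB tumours, a difference of -0.60 (SE 0.18, adjusted p = 0.0882). Without metastasis 2 it was -0.37 (adjusted p = 0.0814). Cox7a1 came next, with 6.95 ± 2 FPKM in metastases and 10.5 ± 2.58 FPKM in N134-RHAMMB tumours (SD, n = 3 each; -0.54, SE 0.26, adjusted p = 0.337). Ndufb8 stood at -0.32 (adjusted p = 0.091) and Atp5a1, the alpha subunit, at -0.29 (adjusted p = 0.121), each with groups that did not overlap. Another fit, chosen after seeing the data, first subtracted the chromosome's median deviation in each library. It gave -0.20 for Ndufb8 (adjusted p = 0.545) and -0.08 for Atp5a1 (adjusted p = 0.779). Ndufa1 then stood at -0.50 (adjusted p = 0.0628) and Cox7a1 at -0.52 (adjusted p = 0.35). Without metastasis 2, 4 members fell past the threshold, among them Atp5c1, Cox7a2 and Ndufs5, where 671 of all genes were called in either direction. Cox7a2 then stood at -0.46 (adjusted p = 0.026), where the fit with all libraries gave -0.15 (adjusted p = 0.829). Library weights called 11 members (13.6%), all lower. With them 15.2% of all genes were called in either direction. That share is no like measure for calls in 1 direction, since in the fit without weights 1.52% of all genes were called lower and 5.04% higher. The hepatocyte transcripts of the metastases moved with this comparison. With the liver and muscle genes removed before scaling, the count of calls was 0 here too.

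**Figure D3:**
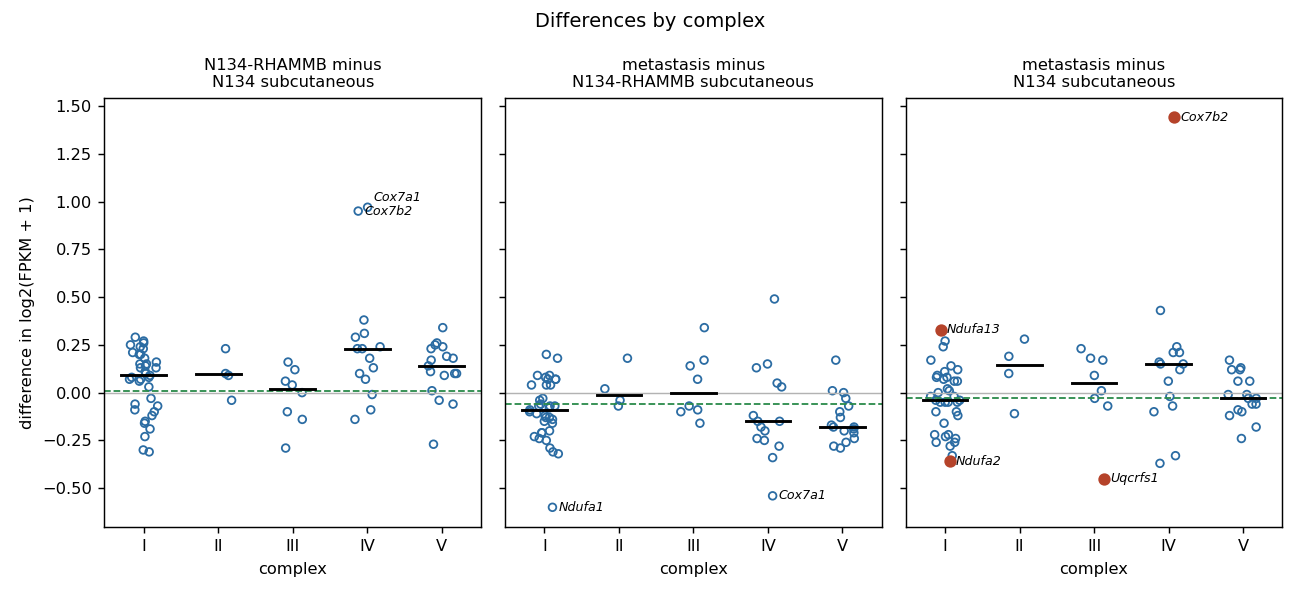
Difference in log2(FPKM + 1) for each member by complex, in the 3 comparisons named above the panels; black bars are medians per complex, the dashed line is the median of all 12854 genes, and filled red points have an adjusted p below 0.05. The 4 filled points all stand in the comparison of metastases with N134 tumours.

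Between metastases and N134 tumours 4 of 81 members were called, where 9.93% of all genes were. Cox7b2 and Ndufa13 rose, where 5.69% of all genes did so, and Uqcrfs1 and Ndufa2 fell, where 4.23% did so. At an unadjusted p below 0.05 there were 3 members higher (9.72% of all genes) and 5 lower (11.7% of all genes). The log2 difference was above 0 for 39 members, 48.1%, against 45.2% of all genes, with a median of -0.01 against -0.03. Groups did not overlap upward in 7 members (11.4% of all genes) and downward in 8 (14.3% of all genes). The median was -0.04 in complex I, 0.15 in II, 0.05 in III, 0.15 in IV and -0.03 in V. This comparison shares its metastases with the comparison above and its N134 tumours with the first one.

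Uqcrfs1 (ENSMUSG00000038462, GRCm38 chromosome 13, 30540308 to 30545362, minus strand) carries the Rieske cluster that takes electrons from ubiquinol. It had 45.4, 49.1 and 46.2 FPKM in metastases, 54.4, 54.0 and 48.9 FPKM in N134-RHAMMB tumours, with 66.6, 63.9 and 62.4 FPKM in N134 tumours. The groups of the metastases and the N134 tumours were apart, and N134-RHAMMB tumours lay between them with 1 tumour just below the highest metastasis. The difference from N134 tumours was -0.45 in metastases (SE 0.09, adjusted p = 0.00921) and -0.29 in N134-RHAMMB tumours (SE 0.09, adjusted p = 0.225). The call for metastases held in 22 of 22 alternatives, with adjusted p from 0.00356 to 0.0486. The other 7 genes of complex III had no call, so the Rieske subunit was the only one of its complex past the threshold, without a test of the difference between subunits.

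Cox7b2 (ENSMUSG00000049387, chromosome 5, 71442824 to 71548205, minus strand) had 1.13, 2.87 and 1.81 FPKM in metastases, against 0.162, 0 and 0 FPKM in N134 tumours. No member had a failed or low-data status, so these values of 0 were not flagged as failed estimates. In the Cox7b2 transcript of 542 bases 1 fragment was worth 0.102 to 0.125 FPKM before any correction for fragment length, so all values are low. The log2 difference was 1.44 (SE 0.22, adjusted p = 0.00157) with a pseudocount of 1 and 3.79 with 0.1. The gene met the filter only through metastases and N134-RHAMMB tumours, where it is high, so a low level in N134 tumours was bound to appear as a difference and the call supports nothing further. Its share of Cox7b plus Cox7b2 was 0.376%, 1.83% and 0.472% in metastases, 0.401%, 0.304% and 0.243% in N134-RHAMMB tumours and 0.055%, 0% and 0% in N134 tumours. The 6 germ cell markers summed to at most 0.333 FPKM in any library, and Prm1, Prm2 and Tnp2 were listed at 0.

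Ndufa13 (ENSMUSG00000036199, chromosome 8, 69894180 to 69902558, minus strand), also called GRIM-19, joins the membrane and the matrix arm of complex I. It had 116, 114 and 133 FPKM in metastases, 118, 121 and 113 FPKM in N134-RHAMMB tumours, with 94.4, 99.4 and 93.6 FPKM in N134 tumours. Both N134-RHAMMB groups lay above all N134 tumours. The log2 difference from N134 tumours was 0.33 in metastases (SE 0.09, adjusted p = 0.047) and 0.29 in N134-RHAMMB tumours (adjusted p = 0.23).

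Ndufa2 (ENSMUSG00000014294, chromosome 18, 36742332 to 36744557, minus strand) is a small subunit of the matrix arm. It had 149, 136 and 163 FPKM in metastases, 165, 179 and 172 FPKM in N134-RHAMMB tumours, with 182, 198 and 195 FPKM in N134 tumours, with no overlap between any of the 3 groups. The difference between metastases and N134 tumours was -0.36 (SE 0.09, adjusted p = 0.0371), and -0.34 (adjusted p = 0.0537) with liver and muscle genes removed before scaling. Ndufa13 passed in 7 of 22 alternatives, with adjusted p up to 0.268, and Ndufa2 in 6 of 22, with adjusted p up to 0.45. Ndufa13 overlaps Yjefn3 on the same strand and Tssk6 on the other, and Ndufa2 overlaps Tmco6 on the other strand. The sources used here do not say whether counting used the strand, and the values of both genes are therefore uncertain.

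**Figure D4:**
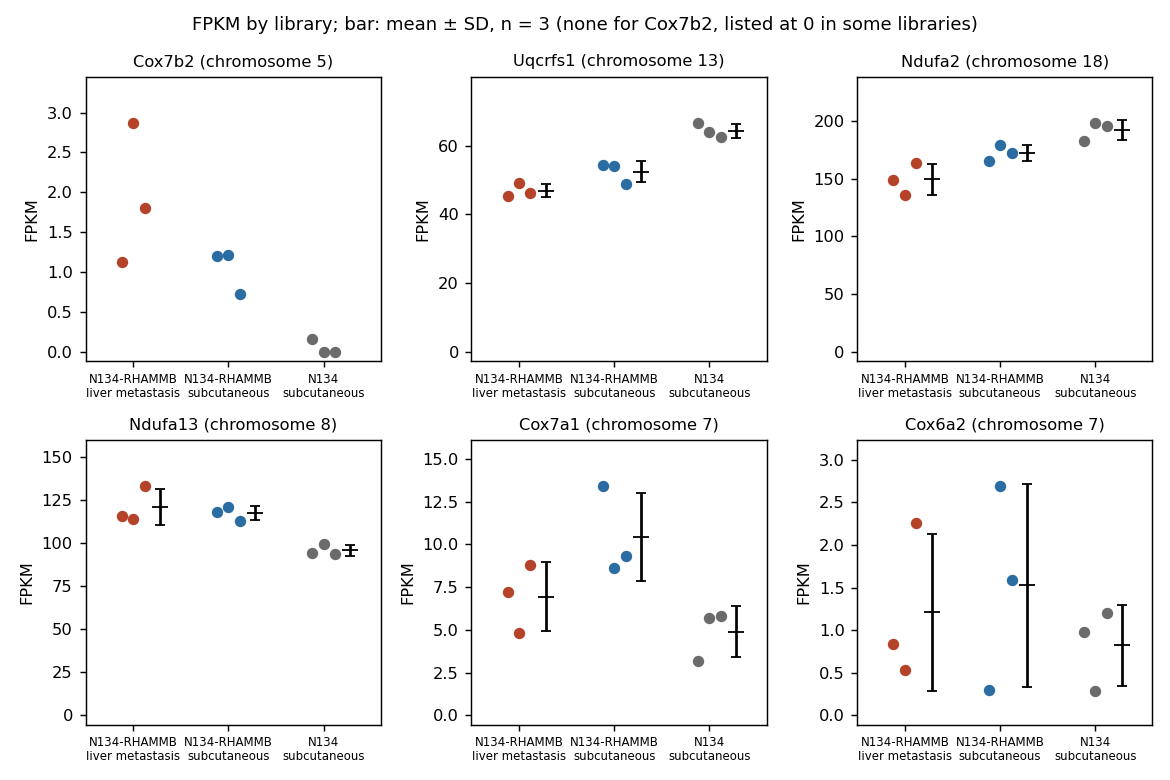
FPKM in each library for the 4 called genes and for the muscle isoforms Cox7a1 and Cox6a2, with metastases, N134-RHAMMB tumours and N134 tumours from left to right; bars give the mean ± SD of 3 libraries, except for Cox7b2. Uqcrfs1 and Ndufa2 are lowest in metastases, Ndufa13 lowest in N134 tumours, and Cox6a2 overlaps between all groups.

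In single metastases members on some chromosomes deviated in the same direction as the other genes there, and on others they did not. The 83 genes lie on 19 chromosomes, 3 of them on the X. For each gene the log2 deviation of a library from the 9-library median was taken, and the median over all other tested genes of the chromosome was set beside the members. In metastasis 2 the other X-linked genes had a median of -0.26 and the 3 X-linked members of -0.78. Cox7b had 300, 154 and 381 FPKM in metastases 1, 2 and 3, Ndufa1 had 263, 164 and 270 FPKM, and Ndufb11 had 303, 199 and 295 FPKM. Metastasis 2 was the lowest of all 9 libraries for each of these 3 subunits, which belong to complexes IV and I.

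On chromosome 9 the direction was the opposite. The other genes of chromosome 9 stood at 0.21 in metastasis 2 and the 5 members at 0.31. Cox7a2 had 143, 280 and 148 FPKM in metastases 1, 2 and 3, and Sdhd had 59.6, 108 and 53.9 FPKM. The remaining members there, Cox5a, Uqcrc1 and Atp5l, were highest in metastasis 2 among the metastases too. Chromosome 8 had its shift in another library: in metastasis 3 the other genes stood at 0.19 and the 2 members, Ndufa13 and Ndufb7, at 0.30. Ndufb7 had 135, 131 and 180 FPKM in metastases 1, 2 and 3.

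On 9 of the 19 chromosomes the members and the other genes had opposite signs in metastasis 2, with the members above 0 each time. On chromosome 11, for example, the other genes stood at -0.12 and the members at 0.20, and on chromosome 17 at -0.07 and 0.18. Over all members, metastasis 2 minus the mean of metastases 1 and 3 had a median of 0.17 on the log2 scale and was above 0 for 57 of 81, against -0.09 and 41.2% for the other genes. The excess was larger in complex V (16 of 17 above 0, median 0.22), complex III (7 of 8, 0.23) and complex II (4 of 4, 0.49). It was smaller in complex I (22 of 37, 59.5%) and complex IV (8 of 15, 53.3%), each with a median of 0.05, which is also above that of the other genes. The lowest values were -1.13 for Cox7b and -1.02 for Cox6b2, and the highest 0.94 for Cox7a2 and 0.92 for Sdhd. These are single libraries and carry no test.

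Of the genes called between metastases and N134 tumours, Ndufa2, Ndufa13 and Uqcrfs1 lie on chromosomes whose median was shifted in their own direction. The median log2 difference of all other tested genes, members left out, was -0.26 on chromosome 18 (Ndufa2), 0.13 on chromosome 8 (Ndufa13), -0.17 on chromosome 13 (Uqcrfs1) and 0.00 on chromosome 5 (Cox7b2). After the chromosome's median deviation was subtracted in each library, an alternative chosen after seeing the data, Ndufa2 stood at -0.16 (adjusted p = 0.45) and Ndufa13 at 0.19 (adjusted p = 0.268). Uqcrfs1 then stood at -0.37 (adjusted p = 0.0345) and Cox7b2 at 1.42 (adjusted p = 0.00269), with the limit of the filter given above for Cox7b2.

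**Figure D5:**
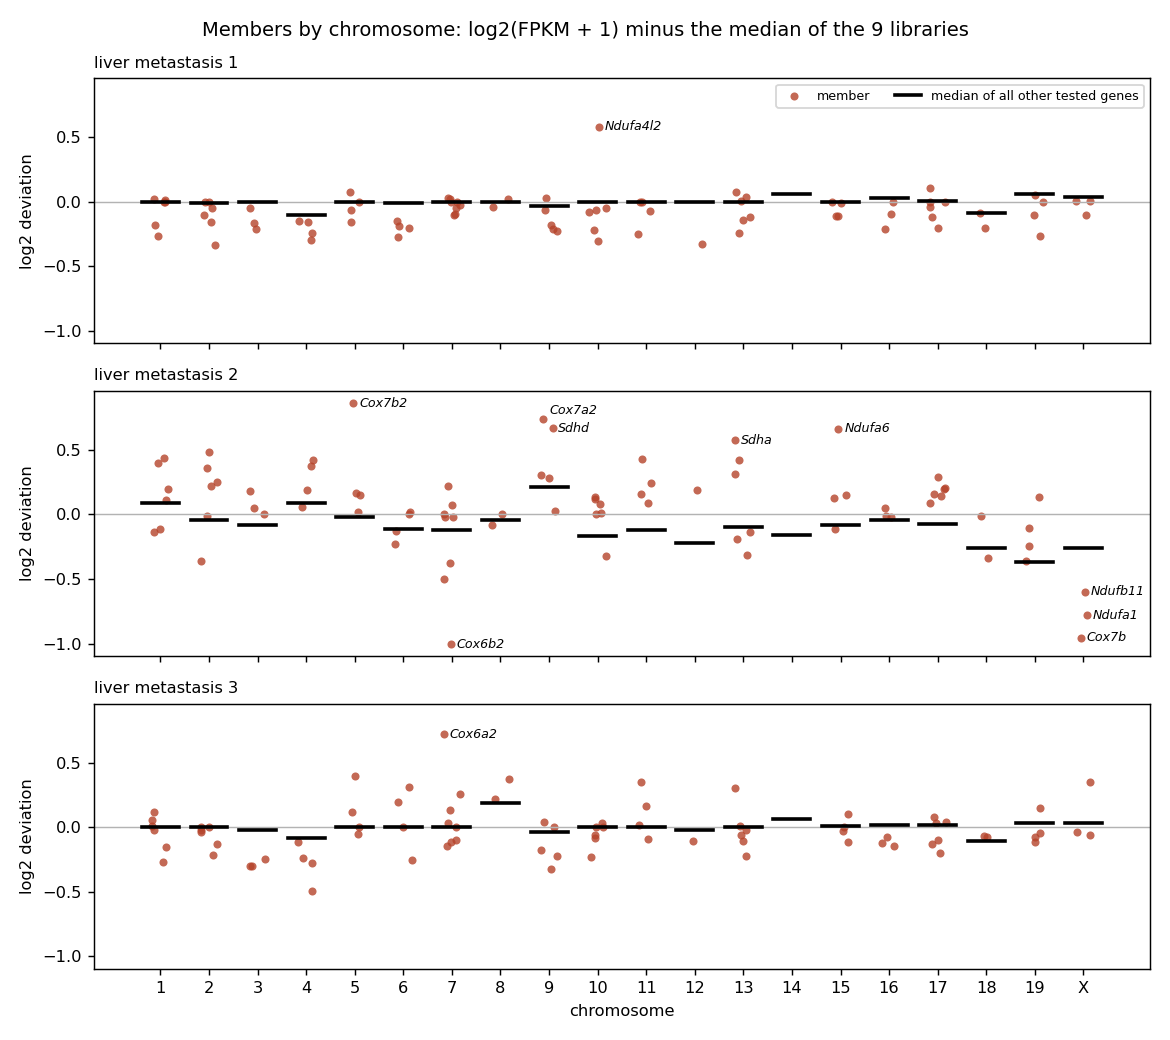
Deviation of log2(FPKM + 1) from the 9-library median for each member (red points) by chromosome, in metastases 1, 2 and 3 from top to bottom; black bars are the medians of all other tested genes on that chromosome. Metastasis 2 has X-linked members far below 0 and chromosome 9 members above it, on the same side as the other genes there.

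The partners of the complexes were followed through 118 genes in 10 lists: assembly factors, electron carriers, mitochondrial carriers, the tricarboxylic acid cycle, regulators and the mitochondrially encoded subunits. Of these, 104 were in the table and 97 passed the filter, and the 13 mitochondrially encoded subunits and Ndufaf8 were not analysed here. In N134-RHAMMB tumours, 0 of the 97 were called against N134 tumours (0.194% of all genes). Between metastases and N134-RHAMMB tumours, 0 rose (5.04% of all genes) and 2 fell, 2.06% against 1.52% of all genes. Between metastases and N134 tumours, 1 rose, 1.03% against 5.69% of all genes, and 0 fell (4.23% of all genes). These shares are near or below those of all genes.

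The genes that fell were Slc25a5 and Usmg5. Slc25a5, which exchanges ADP for ATP across the inner membrane, had 174, 159 and 169 FPKM in metastases, 238, 238 and 212 FPKM in N134-RHAMMB tumours, with 167, 169 and 172 FPKM in N134 tumours. The difference between metastases and N134-RHAMMB tumours was -0.45 (adjusted p = 0.0086), and the N134 tumours stood at the level of the metastases. Usmg5, a small membrane subunit of the ATP synthase, had 215, 193 and 213 FPKM in metastases, 312, 379 and 252 FPKM in N134-RHAMMB tumours, with 226, 268 and 256 FPKM in N134 tumours (-0.58, adjusted p = 0.0351 between the first 2 groups). The gene that rose, Suclg2, encodes the GTP-forming subunit of succinyl-CoA ligase, the step before complex II. It had 7.82, 13 and 8.94 FPKM in metastases, 6.33, 5.81 and 9.48 FPKM in N134-RHAMMB tumours, with 4.36, 3.77 and 4.24 FPKM in N134 tumours (1.06, adjusted p = 0.00881 for metastases against N134 tumours). Suclg2 is also expressed in liver, and the part of the hepatocyte transcripts in it was not tested.

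The other partners did not pass, and the largest log2 differences of each list were as follows. Between N134-RHAMMB and N134 tumours, assembly factors stood at 0.50 (Nubpl) and 0.31 (Ndufaf7) for complex I, 0.25 (Sdhaf2) and 0.19 (Sdhaf3) for II, 0.50 (Lyrm7) and 0.36 (Bcs1l) for III, and -0.78 (Higd1a) and -0.62 (Pet117) for IV. The partners of complex V stood at 0.31 (Usmg5) and 0.28 (1110032A03Rik), electron carriers at -0.24 (Etfdh) and 0.22 (Etfa) and mitochondrial carriers at -0.44 (Ucp2) and 0.43 (Slc25a5). The cycle enzymes stood at 0.66 (Suclg2) and 0.31 (Pdhb), and the regulators at -0.41 (Polrmt, the mitochondrial RNA polymerase) and -0.20 (Nrf1).

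Between metastases and N134-RHAMMB tumours, assembly factors stood at -0.25 (Ndufaf1) and 0.21 (Acad9) for complex I, -0.25 (Sdhaf1) and -0.22 (Sdhaf2) for II, -0.61 (Lyrm7) and -0.57 (Uqcc1) for III, and 0.47 (Higd1a) and -0.36 (Surf1) for IV. Beside Usmg5, 1110032A03Rik stood at -0.27, and beside Slc25a5, Vdac3 stood at -0.37. Electron carriers stood at 0.31 (Etfdh) and 0.29 (Etfb), cycle enzymes at 0.41 (Suclg2) and -0.24 (Idh3b) and regulators at -0.28 (Yy1) and 0.27 (Esrra).

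Between metastases and N134 tumours, assembly factors stood at 0.33 (Nubpl) and 0.28 (Ndufaf7) for complex I, -0.23 (Sdhaf1) and 0.04 (Sdhaf2) for II, 0.43 (Bcs1l) and -0.30 (Uqcc1) for III, and -0.78 (Pet117) and 0.47 (Coa6) for IV. The partners of complex V stood at 0.32 (Tmem70) and -0.29 (Atpif1, the inhibitor of the synthase), electron carriers at 0.43 (Etfa) and -0.32 (Cycs, cytochrome c), and mitochondrial carriers at -0.44 (Ucp2) and -0.28 (Vdac1). Beside Suclg2, Fh1 stood at 0.38, and the regulators stood at -0.53 (Polrmt, adjusted p = 0.0969) and -0.38 (Nrf1, adjusted p = 0.0532). Ppargc1a, the coactivator known for raising these genes in muscle, reached at most 0.583 FPKM in any library and was not tested.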

How the data were processed

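RNA of 9 libraries was measured by RNA sequencing. The authors deposited 1 table of FPKM values for protein-coding genes with a status word per value, per the file headers. bcl2fastq 2.19, STAR 2.5.2, Cufflinks 2.1.1 and the GRCm38 build are named without roles, per the submitters' processing notes. The sources used here do not give the library kit, strand setting or read length. FPKM divides by length and library size, so a value also falls when other genes take more of a library, and near-identical copies such as processed pseudogenes can share reads with a subunit gene.

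Of 22053 rows, 7 with a failed estimate and 102 that repeated a symbol were dropped. The 12854 genes with at least 1 FPKM in at least 3 libraries were fitted as log2(FPKM + 1) with limma 3.58.1 in R 4.3.3, with an intensity trend and 1 model over all 9 libraries (6 residual degrees of freedom). The 2-sided p-values were adjusted by Benjamini and Hochberg's method over all 12854 genes, with a threshold of 0.05. Single genes were not tested by permutation, since 3 against 3 libraries allow no exact p under 0.1. The 3 comparisons share groups, so none is set against another by overlap or correlation. Differences are on the log2(FPKM + 1) scale, which understates those of low genes.

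Coordinates are those of the table with 1 added to the start, which then equal GENCODE release M21 for 61 members. Depth was estimated from the FPKM of single fragments in transcripts of 2000 to 6000 bases. Members matched RefSeq by symbol or synonym. Figures were drawn in Python 3.11.15. The members, gene lists and tests were chosen with earlier results of these data known. Named by rule were the most abundant member of each complex, members that passed, the largest 2 differences per comparison, all paralogs, members under the filter and the largest 2 differences of each related list; other members were named after their values were seen. Alternatives covered the pseudocount, filter, scaling, variance model, library weights, a replicate block, single libraries left out, N134-RHAMMB tumours 2 and 4 left out, removal of liver and muscle genes and chromosome centring. The values of 1 member are not reported by name here.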

Additional observations from a re-analysis of the deposited data

How the results depend on the processing

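Counts of called members moved with the settings as follows. Between N134-RHAMMB and N134 tumours the count of 0 became 1 with a pseudocount of 0.1, 1 with only the 2 groups compared (Cox7b2 both times) and 25 with library weights, where 24, 169 and 2629 of all genes were called in turn, against 25. With each library left out in turn it ran from 0 to 1. Calls of Cox7b2 carry the limit of the filter given above in every setting. Between metastases and N134-RHAMMB tumours the count of 0 became 11 with library weights (1950 of all genes, against 843), and ran from 0 to 4 with each library left out. The count was 4 without metastasis 2, where 671 of all genes were called. Between metastases and N134 tumours the count of 4 became 1 at a mean of at least 5 FPKM, where Cox7b2 is not tested. It became 2 with median-of-ratios scaling, with only the 2 groups compared, without the intensity trend, with N134-RHAMMB tumours 2 and 4 left out and with chromosome centring (chosen after seeing the data). With each library left out it ran from 2 to 4, and Uqcrfs1 was among the calls each time. With liver and muscle genes removed before scaling it was 3, without Ndufa2. Of all genes, 1276 were called in this comparison in the main fit, 990 with only the 2 groups compared and 1105 without metastasis 2. The cause of these changes was not tested. The replicate number as a block gave 0, 0 and 2 calls in the 3 comparisons. Same-numbered libraries correlated at -0.0027 to 0.102 in their deviations from the group means, and libraries of different numbers at -0.195 to 0.15. These deviations sum to 0 within each group of 3, so the values cannot decide whether the numbers pair the samples. The median differences over members moved by less than 0.059, the SD between libraries, in every alternative. That of metastases against N134 tumours, -0.01, changed sign within this range, up to 0.03. The median over all genes moved too. Between N134-RHAMMB and N134 tumours the main fit gave 0.10 over members and 0.01 over all genes. Without N134-RHAMMB tumour 2 these were 0.09 and 0.06, and without N134-RHAMMB tumour 4 they were 0.14 and -0.03. The depth of at most 18.2 M fragments limits members near 1 FPKM, such as Cox7b2, Cox6a2, Cox4i2 and Atp5l.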
